A study of Mus musculus with 35 samples.

Results

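The comparison set the 4 total lysate libraries in which Chtop was restored against the 4 total lysate libraries in which it was knocked down, pooled over 2 cell lines. These 8 libraries are 8 of the 35 in the study, and were chosen by their labels alone. The cells were N2a Flp-In rtTA, a mouse neuroblastoma line in which a cDNA placed at a recombination site is switched on by doxycycline. The mEx5 line carried a FLAG-tagged Chtop cDNA without exon 5 and the pEx5 line a FLAG-tagged Chtop cDNA with exon 5, both designed to escape the siRNA. Knockdown cells received a Chtop siRNA and no doxycycline. Rescue cells received the same siRNA, with doxycycline from the medium change at 24 h until harvest at 72 h. Control cells, used here as a reference level, received a non-targeting siRNA pool and no doxycycline. Each of the 4 groups compared held 2 replicates, called biological in the labels, and the 4 control libraries of the same 2 lines were measured alongside.

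The design limits what the comparison can carry. No library combined doxycycline with the control siRNA, so the effects of doxycycline, of the FLAG-tagged cDNA and of a return of Chtop function cannot be told apart. The labels do not say whether a line was 1 clone. Knockdown and rescue cells were pooled from 3 culture dishes and control cells from 2, and a single Chtop siRNA product was used.

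Chtop is a chromatin-associated RNA-binding protein with a long stretch rich in arginine and glycine. Arginines of this stretch are methylated by the arginine methyltransferase Prmt1. It works with the TREX complex, which loads onto new mRNA during transcription and splicing and hands it to the export receptor Nxf1. Chtop also acts on the splicing of its own RNA. A change in total lysate is a change in the level of an RNA over the whole cell and does not by itself report export.

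The 2 cDNAs differ in exon 5 of Chtop, and its sequence is shown because it is the one designed difference between the pooled lines. The labels give no coordinates, so the exon was taken by its number from the GENCODE transcript Chtop-202, and it is absent from Chtop-207. On mm10 it lies at chr3:90502116-90502253 on the minus strand, inside the coding sequence, and is 138 bases long. The sequence reads 5′ to 3′, with the codons for arginine in capitals.

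Chtop exon 5: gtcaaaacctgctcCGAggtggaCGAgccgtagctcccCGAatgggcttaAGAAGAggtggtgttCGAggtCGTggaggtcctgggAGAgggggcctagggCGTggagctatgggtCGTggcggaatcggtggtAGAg

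Of its 45 whole codons, 11 encode arginine and 18 encode glycine, and in 7 places an arginine codon is followed directly by a glycine codon. The cDNA of the mEx5 line thus lacks a stretch of the arginine and glycine rich region that the cDNA of the pEx5 line keeps.

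Total counts in the 8 libraries ran from 20652832 in mEx5 knockdown replicate 1 to 36102129 in pEx5 knockdown replicate 2. Mitochondrially encoded genes took between 4.61% and 4.97% of the counts in the replicate 1 libraries and between 3.38% and 3.74% in the replicate 2 libraries. Of 10 neuron markers, 9 had a mean of at least 1 RPKM (the authors' deposited values, per transcript length and library size), and of 18 noradrenergic neuroblastoma markers 15 did. The corresponding numbers were 2 of 10 for glia, 2 of 10 for fibroblasts and 1 of 8 for immune cells, with Aqp4, Foxd3, Col3a1, Ptprc and Cd3e listed at 0 in all 12 libraries. The summed RPKM of the neuron markers ranged from 1664 to 2150 in the knockdown, from 1621 to 1967 in the rescue and from 2463 to 2768 in the control. In these bulk samples fewer cells of a type and less RNA per cell cannot be told apart.

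Chtop RNA rose in every rescue library. It is the targeted gene and so checks the labels (chr3:90498956-90509498, minus strand, ENSMUSG00000001017.15). In CPM, counts brought to a common library total after TMM scaling, the knockdown libraries of the mEx5 line held 33.2 and 34.0 and those of the pEx5 line 22.2 and 19.4. The rescue libraries held 187.9 and 214.3 in the mEx5 line and 288.9 and 197.3 in the pEx5 line. All 4 rescue libraries lay above all 4 knockdown libraries, and also above the control libraries, which held 141.4, 139.6, 136.4 and 125.1. Means were 27.2 ± 7.51 in the knockdown, 222.1 ± 45.8 in the rescue and 135.6 ± 7.29 in the control (SD, n = 4 each). The fitted log2 fold change of rescue over knockdown was 3.05 (SE 0.27), or 8.28-fold, with an adjusted p of 0.046 by edgeR's quasi-likelihood test.

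The fold of Chtop was large, its adjusted p lay near the threshold, and its estimates differed between the lines. What set the adjusted p was not tested. Within the mEx5 line the log2 fold change of Chtop was 2.58 (SE 0.20) and within the pEx5 line 3.54 (SE 0.21). The difference of 0.96 (SE 0.28) had an unadjusted p of 0.017 and an adjusted p of 0.67 by the same test, so it did not pass across all genes. Counts of Chtop add the endogenous RNA and the induced cDNA, which share coding sequence. The call was lost when any library but pEx5 rescue replicate 1 was left out, with adjusted p between 0.053 and 0.19, while the log2 fold change stayed between 2.82 and 3.23.

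**Figure D1:**
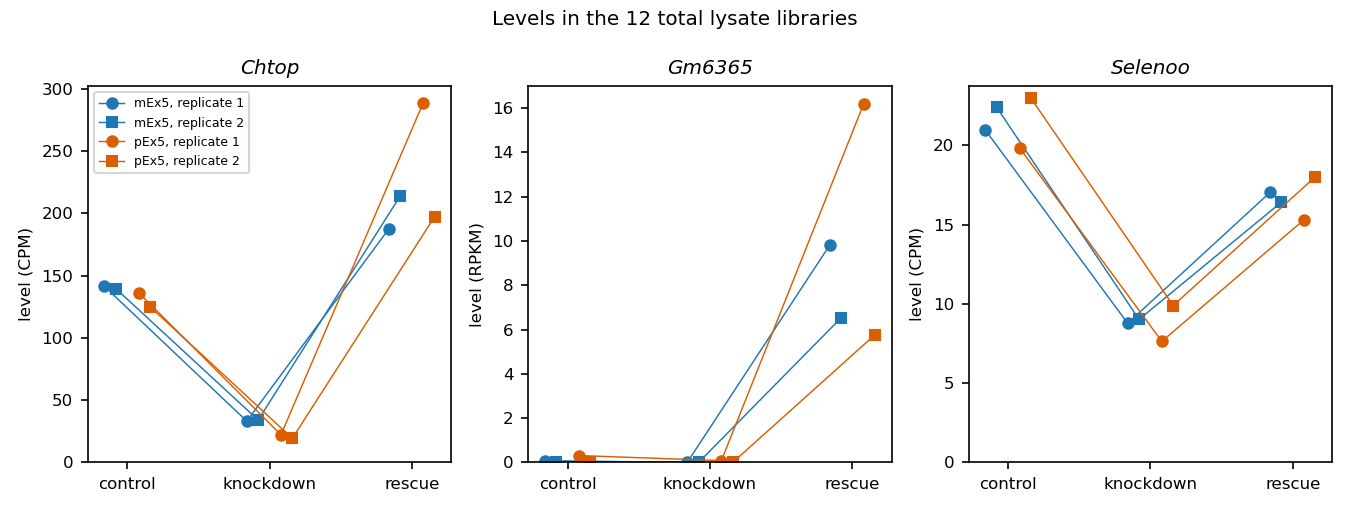
Levels of Chtop (CPM), the processed pseudogene Gm6365 (RPKM) and Selenoo (CPM) in the 12 total lysate libraries, on linear axes from 0. Each point is 1 library, colour gives the line, shape the replicate, and lines join the libraries of 1 line and replicate. Rescue lies above knockdown in all 4 pairs of each panel, and Chtop in the rescue lies above the control while Selenoo lies below it.

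A single other gene reached a change close to 2-fold. Selenoo encodes selenoprotein O, a mitochondrial selenoprotein with a kinase-like fold that transfers AMP to other proteins (chr15:89089084-89100340, plus strand, ENSMUSG00000035757.16). It held 8.78 and 9.02 CPM in the mEx5 knockdown and 7.64 and 9.90 CPM in the pEx5 knockdown. In the rescue it held 17.03 and 16.4 CPM in the mEx5 line and 15.3 and 18.0 CPM in the pEx5 line. The groups did not overlap, and the 4 control libraries, at 19.8 to 22.98 CPM, lay above both. Its log2 fold change of rescue over knockdown was 0.92 (SE 0.083), or 1.89-fold, with an adjusted p of 7.05e-04 by edgeR's quasi-likelihood test.

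The change in Selenoo had much the same size in both lines. It was 0.91 (SE 0.13) in the mEx5 line and 0.92 (SE 0.12) in the pEx5 line, on the log2 scale, and their difference was 0.01 (SE 0.18). Selenoo kept its call in all 18 alternative analyses run, with log2 fold changes from 0.85 to 0.97 and adjusted p up to 0.030. Its rescue level stayed below the control by 0.37 on the log2 scale (SE 0.071, adjusted p 3.27e-04 by edgeR), a comparison that uses the same rescue libraries.

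Across all genes the rescue changed little in total lysate. Of 9237 genes tested, 27 were called at an adjusted p under 0.05, 0.292% of those tested, with 13 higher (0.141%) and 14 lower (0.152%) in the rescue. Without adjustment, 1695 genes had a p under 0.05, 898 higher and 797 lower. Counts at that p in the gene lists below are to be read beside these. Chtop alone changed by 2-fold or more. The median absolute log2 fold change was 0.073, against a median SE of 0.063. For 9213 of 9237 genes the 95% interval of the fold change lay within 2-fold either way, and for 9115 it lay within 1.5-fold.

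The number of calls rested on single libraries. It fell to 1 without mEx5 knockdown replicate 1, mEx5 knockdown replicate 2 or pEx5 knockdown replicate 1, to 2 without pEx5 rescue replicate 1, to 4 without pEx5 rescue replicate 2 and to 10 without mEx5 rescue replicate 2. It rose to 174 without pEx5 knockdown replicate 2. Leaving the replicate number out of the model gave 2 calls, Chtop and Selenoo. Giving each of the 4 pairs of line and replicate its own block gave 1, Selenoo. DESeq2 with the same covariates called 212 genes (2.29%), 104 higher and 108 lower.

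**Figure D2:**
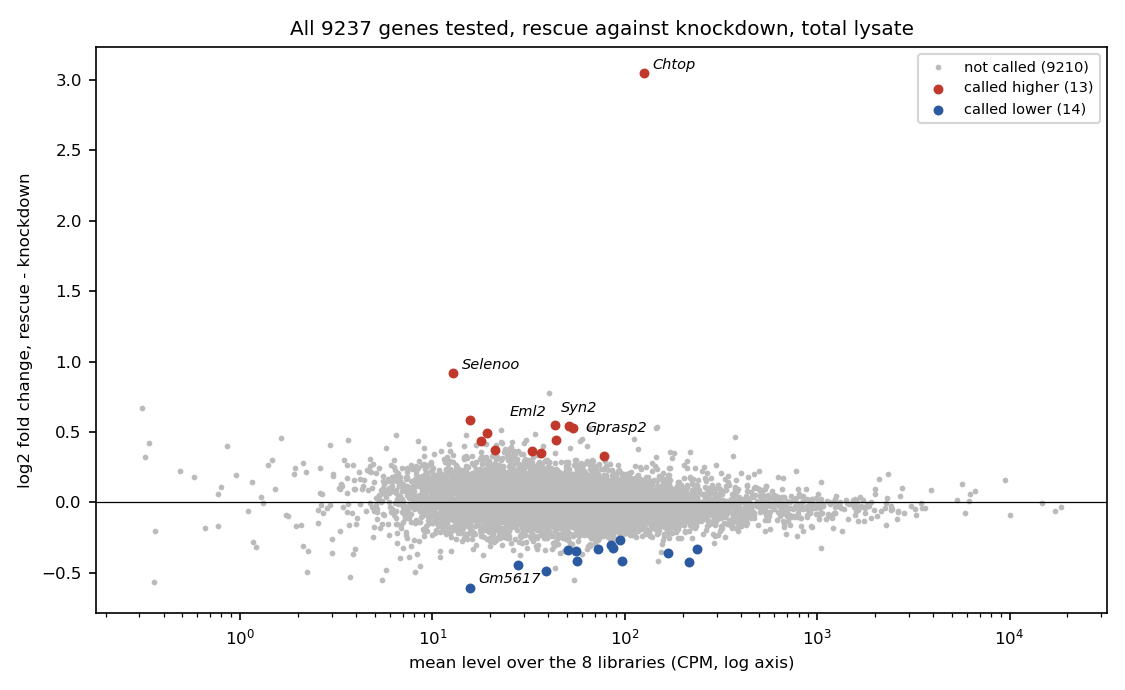
Log2 fold change of rescue over knockdown for each of the 9237 genes tested, against its mean level over the 8 libraries (CPM, log axis). Called genes are red (13 higher) or blue (14 lower). Chtop, at 3.05, and Selenoo, at 0.92, stand above the other called genes, which change by at most 0.61 in size.

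The other 25 called genes moved by at most 1.52-fold. Each was higher, or lower, in the rescue in 4 of 4 pairs of line and replicate, as were Chtop and Selenoo. Over all genes tested 15% were higher in 4 of 4 pairs and 14.2% lower. Of the 27 called genes 6 had all rescue libraries above all knockdown libraries and 9 had them all below, against 1.41% and 1.88% of all genes. These counts come from the contrast that chose the genes and only describe them. Every one of the 25 lost its call in at least 6 of the 18 alternatives, and none changed direction in any.

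Called genes that rose included several with roles in neurons and signalling. Syn2 encodes synapsin 2, a phosphoprotein of synaptic vesicles. It held 44.0 and 59.4 CPM in the mEx5 knockdown and 77.7 and 80.8 CPM in the mEx5 rescue. In the pEx5 line it held 23.5 and 38.5 CPM in the knockdown and 37.6 and 46.1 CPM in the rescue. The rise appeared within each line, while the pooled groups overlapped, and the pEx5 line held less Syn2 in each condition. The log2 fold change was 0.54 (SE 0.087, adjusted p 0.034 by edgeR), and the control libraries held 94.5 to 139.0 CPM. Of 32 tested genes of neuronal cytoskeleton and synapse, Syn2 was the 1 that rose and none fell, by edgeR and by DESeq2. Without adjustment, 6 were higher and 1 lower at a p under 0.05. Their median log2 fold change was 0.0014, beside 0.01 over all genes tested.

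Eml2, which encodes a microtubule-associated protein, rose by 0.55 on the log2 scale (SE 0.099, adjusted p 0.046 by edgeR). Its libraries held 26.9 and 33.6 CPM in the mEx5 knockdown, 27.9 and 52.4 CPM in the pEx5 knockdown, 43.4 and 46.7 CPM in the mEx5 rescue and 48.9 and 64.4 CPM in the pEx5 rescue. The replicate 2 libraries of the pEx5 line were the highest of each group, so that the groups overlapped. Gprasp2, which encodes a sorting protein for G protein-coupled receptors, rose by 0.53 on the log2 scale (SE 0.092). Its mean was 43.7 ± 10.2 CPM in the knockdown and 62.5 ± 8.12 CPM in the rescue (SD, n = 4 each).

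Among signalling genes, Prkca, protein kinase C alpha, rose from 15.03 ± 1.58 to 20.4 ± 0.99 CPM (SD, n = 4 each), without overlap between the groups. Arhgef11, an exchange factor that activates small GTPases, rose from 36.8 ± 7.64 to 49.8 ± 5.23 CPM (SD, n = 4 each). Their log2 fold changes were 0.44 (SE 0.071) and 0.44 (SE 0.067), and the control means were 32.1 and 60.3 CPM.

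Trim67, a tripartite motif protein of the nervous system, rose by 0.33 on the log2 scale (SE 0.055, adjusted p 0.036 by edgeR). Its means were 68.6 ± 11.3 CPM in the knockdown, 86.4 ± 10.5 CPM in the rescue and 81.3 ± 6.61 CPM in the control (SD, n = 4 each). The difference between rescue and control did not pass, at an adjusted p of 0.20 by the same test. The predicted gene 9330159F19Rik, named here after its values were seen, rose by 0.37 on the log2 scale (SE 0.063). It held 16.9 to 19.7 CPM in the knockdown and 22.9 to 24.4 CPM in the rescue, with no overlap.

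Mdm4, an inhibitor of p53, was the gene called by edgeR among 29 tested genes known for introns that are retained in nuclear polyadenylated RNA. It held 28.3 and 34.2 CPM in the mEx5 knockdown, 28.98 and 36.9 CPM in the pEx5 knockdown, 39.5 and 42.5 CPM in the mEx5 rescue and 36.7 and 44.6 CPM in the pEx5 rescue. The log2 fold change was 0.35 (SE 0.060, adjusted p 0.038 by edgeR). Of the 29 genes, 24 had positive and 5 negative log2 fold changes, and 8 were higher in 4 of 4 pairs. At an unadjusted p under 0.05 there were 6 higher and 1 lower, and DESeq2 called 1 in each direction. Their median was 0.07, beside 0.01 over all genes tested. Of all 9237 genes tested, 4825 had positive log2 fold changes and 15% were higher in 4 of 4 pairs. At an unadjusted p under 0.05, 898 of them were higher and 797 lower, and DESeq2 called 2.29% of all genes. Clk3, a kinase of splicing factors, stood at 0.24 (SE 0.070) with an adjusted p of 0.14 and so was not called. Of 15 tested genes of the p53 response none was called, with 1 at an unadjusted p under 0.05 by edgeR and 1 called by DESeq2.

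The mitochondrially encoded mt-Nd6, a subunit of respiratory complex I read from the strand opposite to most mitochondrial genes, rose by 0.36 on the log2 scale (SE 0.068, adjusted p 0.049 by edgeR). It held 44.6 and 38.3 CPM in the replicate 1 knockdown libraries of the mEx5 and pEx5 lines, and 17.2 and 15.6 CPM in the replicate 2 ones. The rescue held 57.8 and 50.8 CPM in replicate 1 and 24.5 and 17.2 CPM in replicate 2. The difference between replicates thus exceeded the difference between conditions, and the call was lost in 13 of 18 alternatives. The part of the higher mitochondrial share of the replicate 1 libraries in these values was not tested. Whether the counting used strand is not stated, so reads from overlapping RNA of the other strand may be included. Of the 15 mitochondrially encoded genes tested, edgeR called mt-Nd6 alone and DESeq2 called 3, all higher. At an unadjusted p under 0.05 there were 5 higher and 1 lower. Their median log2 fold change was 0.04 in total lysate, -0.19 in nuclei and -0.25 in cytoplasm. The small ATP synthase subunit mt-Atp8 stood just outside the threshold at 0.47 (SE 0.090, adjusted p 0.055).

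Of the genes that fell, Crebzf encodes a basic leucine zipper protein that pairs with other factors of that class. It held 51.5 and 44.8 CPM in the mEx5 knockdown and 44.9 and 39.1 CPM in the pEx5 knockdown. In the rescue it held 34.1 and 35.0 CPM in the mEx5 line and 27.8 and 31.7 CPM in the pEx5 line, below every knockdown library. Control libraries held 23.01 to 26.1 CPM, lower again. The log2 fold change was -0.48 (SE 0.070, adjusted p 0.034 by edgeR).

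Atf5, a basic leucine zipper factor of the stress response that follows Atf4, fell from 263.8 ± 10.9 to 209.7 ± 13.4 CPM (SD, n = 4 each). Its knockdown libraries held 278.5, 260.4, 263.7 and 252.4 CPM, and its rescue libraries 192.6, 214.8, 224.3 and 206.9 CPM, without overlap. The log2 fold change was -0.33 (SE 0.059, adjusted p 0.042 by edgeR). Of 41 tested genes of the Atf4 response and tRNA charging, Atf5 was the 1 that fell and none rose by edgeR, and their median was -0.02. DESeq2 called 1, lower, and 4 higher and 3 lower had an unadjusted p under 0.05. Atf4 itself stood at -0.08 (SE 0.057) and was not called. Gps2, a subunit of the nuclear receptor corepressor complex, fell from 56.8 ± 7.91 to 44.7 ± 2.77 CPM (SD, n = 4 each), and all rescue libraries lay below all knockdown libraries.

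Both called histone genes fell. H2afj, a replication-independent H2A variant, held 318.4 and 196.1 CPM in the mEx5 knockdown, 288.5 and 191.7 CPM in the pEx5 knockdown, 194.8 and 145.0 CPM in the mEx5 rescue and 239.2 and 159.0 CPM in the pEx5 rescue. Replicate 1 libraries were higher than replicate 2 libraries in both conditions, so the groups overlapped. The log2 fold change was -0.42 (SE 0.068, adjusted p 0.034 by edgeR). Line by line it was -0.58 for mEx5 and -0.27 for pEx5, a difference with an unadjusted p of 0.011 and an adjusted p of 0.67.

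Hist3h2ba, an H2B gene, fell by 0.42 on the log2 scale (SE 0.055, adjusted p 0.023 by edgeR). Its replicate 1 libraries held 139.7 and 132.1 CPM in the knockdown against 92.6 and 102.0 CPM in the rescue, and its replicate 2 libraries 82.9 and 89.9 CPM against 67.7 and 68.3 CPM. Control libraries held 19.2 to 43.7 CPM of this gene. Of 18 tested histone genes, 17 had negative log2 fold changes, 11 were lower in 4 of 4 pairs, and the median was -0.19, beside 0.01 over all genes tested. The pair medians were -0.38 and -0.27 in replicate 1 of the mEx5 and pEx5 lines and -0.095 and -0.082 in replicate 2, so replicate 1 gave the larger values. DESeq2 called 6 of the 18, all lower, and 10 had an unadjusted p under 0.05 by edgeR. Of all 9237 genes tested, 4412 were negative, 14.2% were lower in 4 of 4 pairs and 1695 had such a p. DESeq2 called 2.29% of all genes. In nuclei the histone median was -0.02. Many histone genes, though not all, are near-identical copies, so reads could be split among those by the authors' counting. Of 87 listed histone genes 18 were tested, in libraries of poly(A) RNA. Histone RNA without a poly(A) tail would not be measured. After removal of trends with transcript length and GC from every library, a step chosen after seeing the data, the histone median was -0.13 and both genes stayed called.

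The remaining called genes that fell were spread over other functions. Rassf1, a tumour suppressor of the Ras association family, fell from 64.3 ± 7.25 to 48.0 ± 2.52 CPM, and Ctxn1, the neuronal membrane protein cortexin, fell from 188.4 ± 16.3 to 146.9 ± 7.96 CPM (SD, n = 4 each). Neither overlapped between the groups. P3h4, an endoplasmic reticulum protein that takes part in collagen modification, fell from 61.8 ± 9.57 to 49.1 ± 11.3 CPM (SD, n = 4 each). Its pair differences ran from -0.50 to -0.10 on the log2 scale. The control mean of P3h4 was 63.1 ± 14.3 CPM (SD, n = 4), and the difference between knockdown and control did not pass (adjusted p 0.89 by edgeR).

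Rpp25, a subunit of ribonucleases P and MRP, fell by 0.32 on the log2 scale (SE 0.052), and Dhps, which makes the hypusine residue of the translation factor eIF5A, fell by 0.30 (SE 0.051). Gpaa1, a subunit of the enzyme that attaches GPI anchors, fell by 0.27 (SE 0.049). All 3 had rescue libraries below all knockdown libraries. For Dhps the values were 92.8, 93.7, 94.0 and 92.3 CPM in the knockdown and 70.2, 74.1, 79.7 and 79.1 CPM in the rescue, beside a control mean of 73.6 CPM. Tex13b, a gene known from testis, fell by 0.33 (SE 0.051) with overlap between the groups. The predicted genes Gm5617 and 2310039H08Rik, named here after their values were seen, fell by 0.61 (SE 0.11) and 0.44 (SE 0.079).

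**Figure D3:**
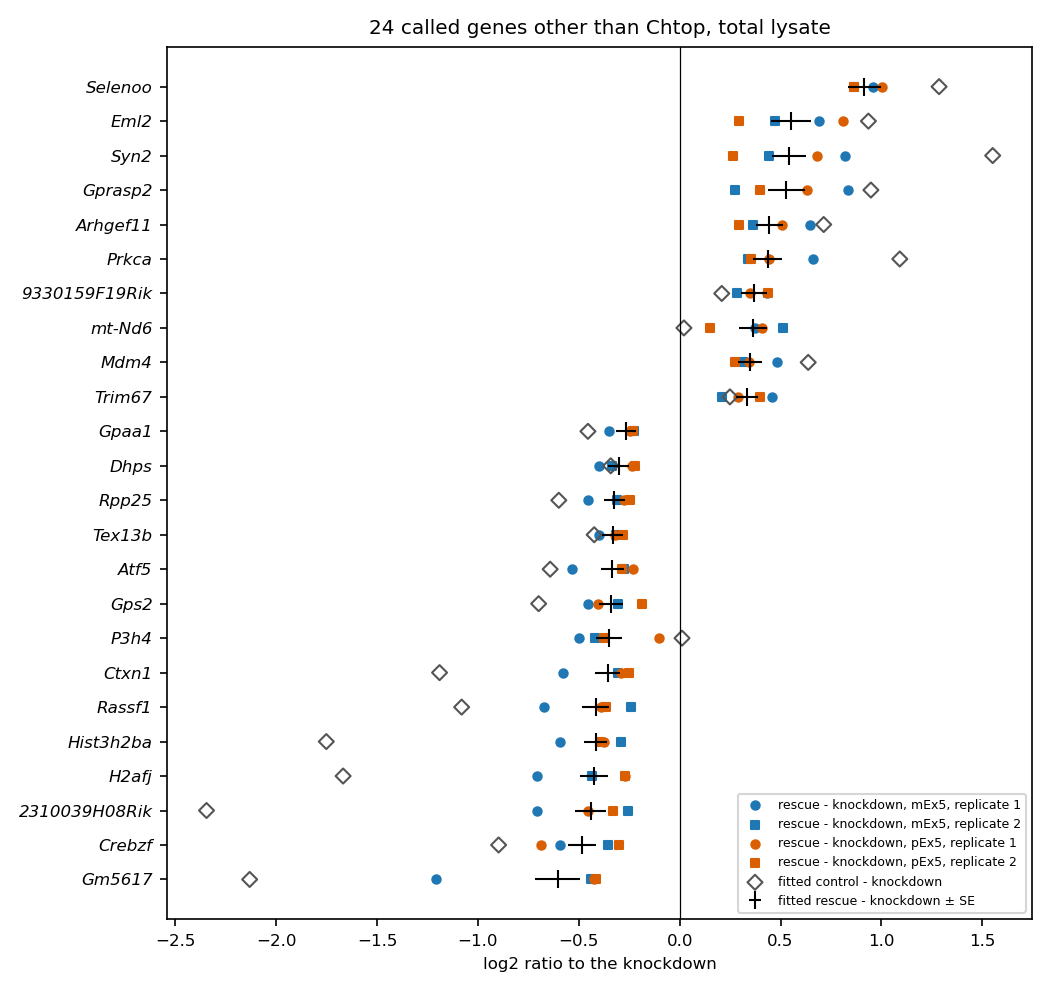
Of the 26 called genes other than Chtop, 24 as log2 ratios to the knockdown in total lysate. Filled points are the 4 pairs of line and replicate, black bars the fitted change with its SE, and open diamonds the fitted control level, which shares the knockdown libraries with the rescue ratios. For Selenoo the 4 pairs lie within 0.86 and 1.00, while for Gm5617 mEx5 replicate 1 reaches -1.21 and the other 3 pairs lie between -0.44 and -0.42.

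Genes just outside the threshold had similar sizes to those just inside. Inside it, Gpaa1 had an adjusted p of 0.047 at -0.27, and mt-Nd6, P3h4 and Gm5617 one of 0.049 at 0.36, -0.35 and -0.61. Outside it, the receptor kinase gene Alk had 0.053 at 0.36, the kinase gene Prkcd 0.055 at 0.31 and the helicase gene Ddx39 0.055 at -0.35, all on the log2 scale.

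The genes that rose and those that fell differed in features that the comparison did not use. The 12 genes that rose, Chtop aside, had longest transcripts of 4768 bases at the median, with 49.8% GC. The 14 that fell had 1620 bases and 57.8% GC, and all genes tested had 3326 bases and 49.8% GC. The authors' deposited table marks genes overlapping Chtop iCLIP, a map of where the protein contacts RNA, with no source stated. Of the 12 genes 9 carried the mark (75.0%) and of the 14 genes 4 did (28.6%), beside 48.5% of all genes tested. The split by mark was not shared by the lines. Among mEx5 libraries, the 4484 marked genes tested had a median log2 fold change of 0.064, against -0.050 for the 4753 unmarked ones. Among pEx5 libraries the order was the other way round, at -0.003 against 0.011. Whether the mark goes with the rescue change was not tested.

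Over all genes tested, the rescue to knockdown log ratio went with transcript length to a different degree in each pair of libraries. Spearman's correlation across 9237 genes, which are not independent replicates, was 0.48 and 0.33 in the mEx5 pairs and -0.25 and 0.23 in the pEx5 pairs. With GC content it was -0.11 and -0.27 in the mEx5 pairs and 0.07 and -0.37 in the pEx5 pairs. With these trends taken out by an offset, 52 genes were called, 26 higher and 26 lower, and 23 of the 27 genes kept their call. Eml2, Gprasp2, mt-Nd6 and 2310039H08Rik did not. The part of the trends in the iCLIP shares was not tested.

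The 2 lines were then compared, since their cDNAs differ by exon 5. No gene was called for a different rescue change in the lines (0% of 9237 genes, edgeR), 672 had an unadjusted p under 0.05, and DESeq2 called 0. Tested within the mEx5 line alone, 132 genes passed (1.43%), 62 higher and 70 lower. Scaling by library totals alone gave 257 there, 178 higher and 79 lower. Within the pEx5 line 5 passed (0.0541%): Chtop, Selenoo, mt-Nd3, Klhl36 and Zc3h11a, all higher. Klhl36, a Kelch-like gene named after its values were seen, held 12.9 and 14.8 CPM in the pEx5 knockdown and 21.1 and 20.8 CPM in the pEx5 rescue, a log2 fold change of 0.59 (SE 0.11, adjusted p 0.030 by edgeR). These counts differ without a difference between the lines having passed its own test, and mEx5 replicate 1 gave larger changes than the other pairs. The median absolute log2 ratio was 0.18 in that pair, against 0.074 in mEx5 replicate 2 and 0.11 and 0.063 in the pEx5 pairs.

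The counts within lines rested on single libraries too. Without mEx5 knockdown replicate 1 the mEx5 line had 1 call, without mEx5 rescue replicate 1 it had 2, and without mEx5 rescue replicate 2, which leaves replicate 1 as the only rescue of that line, it had 2433. It had 232 without pEx5 knockdown replicate 2 and 49 without pEx5 rescue replicate 1, and both lines share 1 estimate of the spread. In the pEx5 line the count moved by more than 1.5-fold without any 1 of the 8 libraries, from 0 without its knockdown replicate 1 to 60 without its knockdown replicate 2. The test of the difference called 519 genes without mEx5 rescue replicate 2, 4 without mEx5 knockdown replicate 2, 8 without pEx5 knockdown replicate 2 and 7 without pEx5 rescue replicate 2.

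TREX core genes, the complex with which Chtop acts, did not pass in the pooled comparison. Of 14 tested members 0 were called by edgeR, 5 had an unadjusted p under 0.05 and DESeq2 called 2. Of all 9237 genes tested 1695 had such a p, and DESeq2 called 2.29% of all genes. The log2 fold changes of 11 members were negative, with a median of -0.10. The median of the members was -0.22 and -0.09 in the mEx5 pairs and 0.02 and 0.02 in the pEx5 pairs. Ddx39, an RNA helicase gene counted in this list, held 186.7, 167.9, 175.5 and 156.6 CPM in the knockdown libraries and 122.4, 142.4, 144.6 and 129.2 CPM in the rescue libraries. These did not overlap, at a log2 fold change of -0.35 (SE 0.068, adjusted p 0.055). Its close relative Ddx39b stood at -0.18 (SE 0.051), and the THO subunit Thoc3 at -0.24 (SE 0.078). The zinc finger protein gene Zc3h11a stood at 0.34 (SE 0.12), with 0.04 for mEx5 and 0.63 for pEx5.

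Export factors outside the core, the list of arginine methylation and the 5FMC complex (a partner of methylated Chtop), and SR proteins had 0 called members by edgeR among 25, 17 and 12 tested. At an unadjusted p under 0.05 they held 3, 3 and 2, and DESeq2 called 0, 0 and 1. The export receptor gene Nxf1 stood at 0.05 (SE 0.048), with a 95% interval that includes 0, and Prmt1, which methylates Chtop, at -0.11 (SE 0.064). Among SR proteins, splicing factors rich in serine and arginine, 9 of 12 log2 fold changes were negative and Srsf2 was the lowest at -0.21 (SE 0.056, adjusted p 0.12).

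Genes of cholesterol synthesis lay near their knockdown level in the rescue. The pathway builds sterols from acetyl-CoA through mevalonate and squalene. Of 9 mevalonate genes and 13 squalene and sterol genes 0 were called by edgeR. At an unadjusted p under 0.05 there were 1 and 2, and DESeq2 called 0 and 2. Hmgcs1, which makes the precursor of mevalonate, held 105.6, 112.5, 94.3 and 98.1 CPM in the knockdown and 105.4, 111.9, 93.5 and 103.9 CPM in the rescue. The controls held 141.6 to 180.8 CPM. Its log2 fold change was 0.01, with a 95% interval from -0.09 to 0.11. Against the control, 9 of 9 mevalonate genes were called lower in the rescue, and of the 13 squalene and sterol genes 9 were called lower and 1 higher. Of all 9236 genes tested 27.8% were called lower and 56.8% in either direction. The member nearest the threshold was Tm7sf2, a sterol reductase gene, at 0.32 (SE 0.069, adjusted p 0.073). It held 11.2 to 14.8 CPM in the knockdown, 14.7 to 17.9 CPM in the rescue and 24.5 to 34.0 CPM in the controls. The knockdown and rescue ranges touched, and the control lay above both.

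Genes of DNA replication lay mostly below the knockdown without any passing. Of 40 tested S-phase genes 0 were called by edgeR and 1 by DESeq2. At an unadjusted p under 0.05 there were 19, all lower, beside 797 lower of all 9237 genes tested. The log2 fold changes of 36 were negative, 28 were lower in 4 of 4 pairs against 14.2% of all genes, and the median was -0.12. The pair medians were -0.18, -0.11, -0.12 and -0.07. Mcm5, of the replicative helicase, stood at -0.20 (SE 0.067) and the sliding clamp gene Pcna at -0.16 (SE 0.052). For 27 mitosis genes the median was -0.02, with 0 called by either tool and 1 at an unadjusted p under 0.05.

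The larger families showed no called member by edgeR. These were 82 cytosolic ribosomal protein genes, 82 respiratory chain genes and 205 Zfp zinc finger genes, with medians of -0.01, -0.04 and 0.02. At an unadjusted p under 0.05 they held 5, 5 and 27, and DESeq2 called 1, 0 and 3. Of all 9237 genes tested 1695 had such a p, and DESeq2 called 2.29% of all genes. In mEx5 replicate 1 the ribosomal protein median was -0.20 and in pEx5 replicate 1 it was 0.20, with -0.02 and -0.01 in the replicate 2 pairs. Among 17 genes of MAP kinase feedback none was called by edgeR and 2 were by DESeq2. The median was 0.09, 5 had an unadjusted p under 0.05, and the phosphatase gene Dusp6 stood at 0.39 (SE 0.11, adjusted p 0.15). The pair medians of this list were 0.35 and 0.13 in replicate 1 of the mEx5 and pEx5 lines. In replicate 2 they were -0.0002 and -0.035, so the positive median came from replicate 1.

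**Figure D4:**
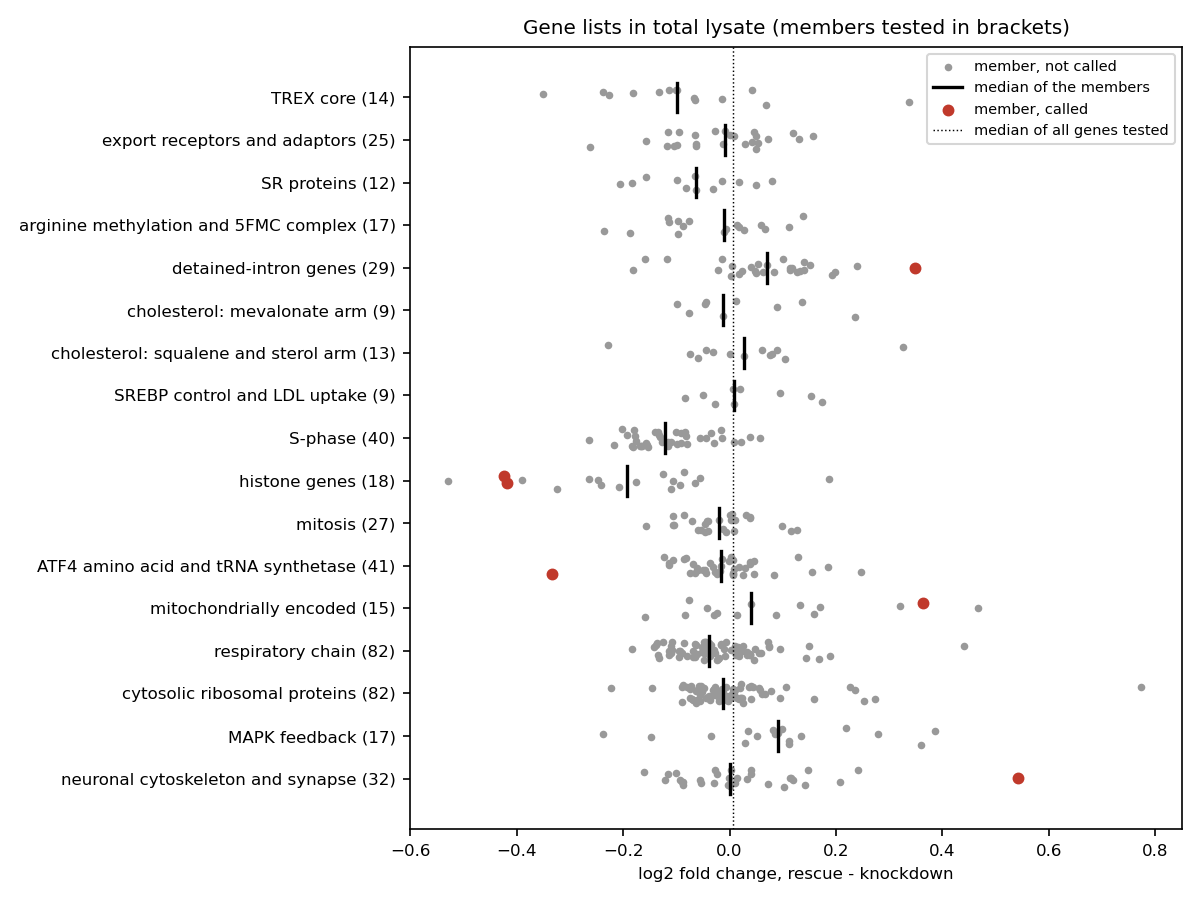
Log2 fold change of rescue over knockdown for the tested members of 17 gene lists in total lysate. Grey points are members not called, red points called members, black bars the list medians, and the dotted line the median of all genes tested. The histone median of -0.19 and the S-phase median of -0.12 lie farthest from the dotted line at 0.01.

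The rescue libraries lay nearer to the knockdown than to the control. The root mean square difference in log2 CPM over genes was 0.12 to 0.28 between rescue and knockdown of the same line and replicate, and 0.34 to 0.40 between rescue and control. On the first principal component of the 12 libraries, 57.1% of the variance, the rescue and knockdown libraries took positive values and the control libraries negative ones. Of 9236 genes tested against the control, 5248 (56.8%) were called in the rescue, 2678 higher and 2570 lower. Chtop stood above the control by 0.72 on the log2 scale (SE 0.20, adjusted p 0.015 by edgeR).

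Nuclei and cytoplasm of the same cultures gave values side by side for the 26 called genes other than Chtop. They are other libraries of the same cells, so their values are not independent of those in total lysate. In nuclei, where 7.7% of 9239 genes were called, 24 of the 26 had the same sign and 10 were called, none with the opposite sign. Some values of the same sign lay near 0 in nuclei, as for Hist3h2ba at -0.009 (SE 0.11), Atf5 at -0.01 (SE 0.069) and Rassf1 at -0.03 (SE 0.070). In cytoplasm, where 0.0433% of 9238 genes were called, 25 of the 26 had the same sign and 2 were called, Selenoo and Tex13b. Selenoo rose by 0.48 (SE 0.084) in nuclei and by 1.02 (SE 0.088) in cytoplasm on the log2 scale, and Chtop by 2.03 (SE 0.092) and 2.99 (SE 0.15). Mdm4 stood at -0.01 (SE 0.073) in nuclei and 0.01 (SE 0.095) in cytoplasm, beside its 0.35 in total lysate. The share of all genes with the same sign in each fraction was not counted, and differences between fractions were not tested.

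**Figure D5:**
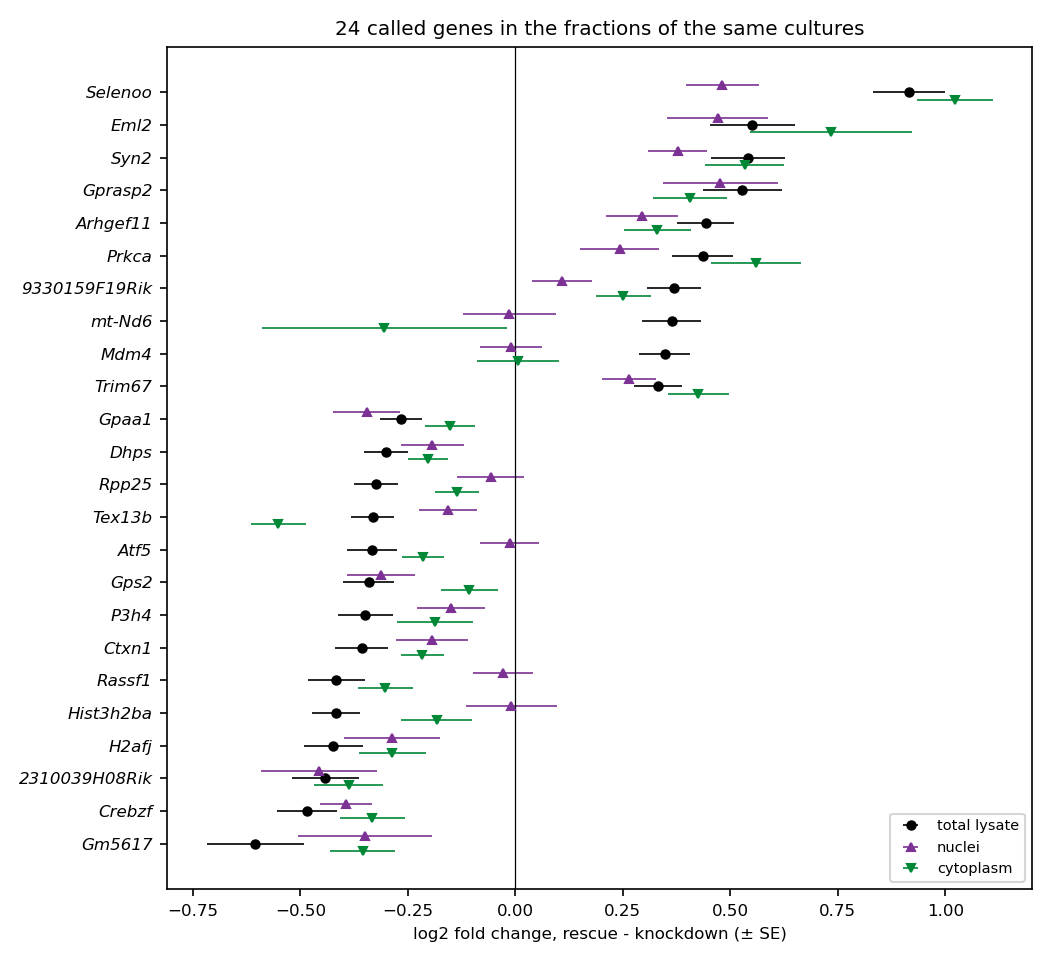
Log2 fold change of rescue over knockdown with its SE for 24 of the 26 called genes other than Chtop, in total lysate (black), nuclei (purple) and cytoplasm (green). Selenoo is the highest in all 3 fractions, at 0.92, 0.48 and 1.02, with Gprasp2 and Eml2 close to it in nuclei. Mdm4 and mt-Nd6 lie near or below 0 outside total lysate, and Hist3h2ba, Atf5 and Rassf1 lie near 0 in nuclei.

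Genes outside the count table were examined in the deposited RPKM values, a step added after seeing the data. Of 7144 genes with a mean of at least 0.2 RPKM, 4 were called by limma (0.056%). Gm6365, a processed pseudogene of 744 bases (chr19:11877615-11878358, minus strand), was listed at 9.80 and 6.52 RPKM in the mEx5 rescue and at 16.2 and 5.77 RPKM in the pEx5 rescue. In the knockdown and control libraries it was listed at 0 to 0.31 RPKM. Of its 724 windows of 21 bases, 421 occur identically in the Chtop transcript, so reads of one can be assigned to the other. Chtop itself was listed at 93.33 to 106.38 RPKM in the control, 13.85 to 24.64 RPKM in the knockdown and 133.95 to 206.51 RPKM in the rescue. Where the reads listed for Gm6365 came from was not tested. Gm6365 met the mean of 0.2 RPKM through its rescue libraries alone. Its adjusted p of 4.56e-04 by limma on log2(RPKM + 0.1) therefore gives no support beyond the values listed. The other 3, Gm14567, Gm27869 and Gm22398, were listed at 0 in the 4 rescue libraries and at 2.35 to 11.05 RPKM in the knockdown libraries. In the control libraries Gm27869 was listed at 0 in all 4, and the other 2 were listed at 0 in some and at up to 8.49 RPKM in others. With a pseudocount of 0.5, 3 genes were called, and the adjusted p of Gm6365 was 0.0059. All these calls set a group with the gene against a group at or near 0 RPKM, where the pseudocount sets the floor. They only describe the genes.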

How the data were processed

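Poly(A) RNA from 12 total lysate libraries (4 rescue, 4 knockdown, 4 control) was analysed, with 8 nuclear and 8 cytoplasmic libraries of the same cultures for side by side values. The submitters' processing notes name Salmon 0.14.1, DESeq2 and mm10. The authors deposited whole-number counts for 9239 genes, chosen in a way that no source used here gives. The deposited RPKM values, scaled to length and library size per the file headers, cover 54393 genes and were used for markers, Gm6365 and genes outside the count table, of which there are 45154. The authors' mark for Chtop iCLIP was used as a yes or no label. Of the RPKM columns 1 has no sample among the labels and was not used. No spike-in RNA is named, so changes are relative to the typical gene.

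Counts were filtered by filterByExpr (2 genes removed), scaled by TMM and tested with edgeR 4.0.16 under R 4.3.3, by a robust quasi-likelihood fit with line, replicate number and condition. P-values were adjusted by Benjamini-Hochberg across every gene fitted, and a gene was called below 0.05. The lines were compared by an interaction term. SE is the log2 fold change divided by the root of F, and a 95% interval uses the fit's degrees of freedom. Mean and SD are of CPM. Rescue against control was fitted on all 12 libraries. DESeq2 1.42.0 was an alternative, and limma 3.58.1 tested log2(RPKM + 0.1). Genes were placed with GENCODE M21, which held all 9239. The test scripts were tested on simulated data.

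Replicate numbers come from the labels (BR4 and BR6 for replicates 1 and 2). Deviations of same-numbered libraries from their group means had correlations of 0.51 to 0.79 over 6 pairs of groups, so the numbers pair the samples. P-values measure the spread left after line, replicate number and condition are fitted. That spread includes differences in the change between the lines, which carry different cDNAs, and between the replicates. The text names Chtop, then up to 12 called genes in each direction by size of change (5 CPM or more on average, lines of 1 sign, predicted symbols passed over), and up to 4 called members of each list. The samples and lists were chosen with earlier results of these data known. Lists are described by counts and medians and were not tested as sets. Alternatives were another scaling, filter, block, tool or set of libraries, and each library left out. Some genes that the rules name are not reported here.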

Additional observations from a re-analysis of the deposited data

Results flagged for a closer look

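The processed pseudogene Gm6365 lies outside the count table that the comparisons used, and its deposited RPKM in each rescue library exceeded every control library, which held 0 to 0.31. It was listed at 9.80 in mEx5 rescue replicate 1, 6.52 in mEx5 rescue replicate 2, 16.19 in pEx5 rescue replicate 1 and 5.77 in pEx5 rescue replicate 2. Of its 724 windows of 21 bases, 421 are also in Chtop. In 81 groups of 4 libraries (27 genes named, in knockdown, rescue and control), no library stood apart by Dixon's rule, which flags about 1 group in 20 by chance. That rate is for libraries of 1 kind. Each group here joined 2 lines and 2 replicate numbers, so the rule could miss a library that stood apart. The 27 genes had also been called from the same libraries, so the absence of flags gives no support.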

How the results depend on the processing

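The 27 calls of the pooled comparison became 2 with no replicate block, 1 with the replicate block within each line, 212 with DESeq2, 75 with all 12 total lysate libraries in the fit and 52 with the length and GC offset, which was chosen after seeing the data. They stayed between 18 and 27 with DESeq2 size factors, library totals alone, no filter, a mean of at least 5 CPM, or no robust estimation. Leaving out 1 library gave 1 to 174 calls. Fewer samples were fitted there, and beyond that the cause was not tested. The line difference ranged from 0 to 519 and stayed at 0 with no replicate block, library totals alone and DESeq2. The 132 calls in the mEx5 line became 1 with no replicate block and 257 with library totals alone, and ranged from 1 to 2433 without 1 library. The 5 in the pEx5 line became 1 with no replicate block and ranged from 0 to 60. In the fits by line, a library left alone in its group took its spread from the rest. Rescue against control ranged from 4530 to 5252. With no replicate block nuclei had 1 call in place of 711 and cytoplasm 4 as before. The 27 genes named had no reversal among 486 values under the alternatives, and 263 kept the call. Of 648 counts of called list members, 561 stayed within 1.5 times and 87 moved. With 2 replicates a group, a median SE of 0.063 limits what can be called.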

Other observations

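Further gene lists had 0 called members by edgeR in rescue against knockdown in total lysate. Of 24 tested genes of glycolysis and glucose transport 15 had positive log2 fold changes, 6 had an unadjusted p under 0.05, and DESeq2 called 1. Their median of 0.07 joined pair medians of 0.23 and 0.21 in the replicate 1 pairs of the mEx5 and pEx5 lines with -0.06 and -0.17 in the replicate 2 pairs, so the replicates lay on opposite sides of 0. Of 22 chaperone genes of the endoplasmic reticulum 15 were negative, and 8 were lower in 4 of 4 pairs against 14.2% of all genes. Their median was -0.07, with 4 at an unadjusted p under 0.05 and 0 called by DESeq2. The 14 tested snoRNA host genes had a median of 0.04, with pair medians of -0.05 and -0.01 for mEx5 and of 0.27 and 0.02 for pEx5, the highest from its replicate 1, 3 at an unadjusted p under 0.05 and 1 called by DESeq2. For 11 genes of the CTLH ubiquitin ligase the median was 0.08, with 3 at an unadjusted p under 0.05 and 0 called by DESeq2.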
